A study of Mus musculus with 11 samples.

Results

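The genes described here are a set of enzymes and regulators of sterol and fatty acid synthesis, most of them known targets of the sterol regulatory element-binding proteins (SREBPs). Its members are a list of 35 gene symbols chosen by function, of which 32 were measured by a probe set that names 1 gene, among 22180 genes in all. Of the measured genes, 5 belong to the mevalonate branch, 11 to the sterol branch, 6 to SREBP control and sterol transport, and 10 to the fatty acid branch. The mevalonate genes Acat2 and Idi1 and the desaturase gene Scd2 have no value here. Idi1 and Scd2 share their probe set with another symbol, and no probe set named Acat2.

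The 11 samples were of 720, a mouse line of T-ALL (acute lymphoblastic leukaemia of T cells), exposed for 8 h to 1 of 3 compounds called Runt domain inhibitors, and RNA was taken from the cells still alive. RUNX transcription factors bind DNA through the Runt domain. AI-9-54 was given at 50 µM (4 arrays, replicates 1 to 4), AI-8-45 at 100 µM (4 arrays, replicates 1 to 4) and AI-7-54 at 100 µM (3 arrays, replicates 1, 3 and 4). All groups share the background of the line, which came from a Tcf12+/- mouse with a Tal1 transgene under the Lck promoter, and 1 line stands for the disease. No vehicle-treated culture was analysed here, so "lower", "higher", "fell" and "rose" set 1 compound against another and not against untreated cells. The compounds carry code names only. Whether replicates were separate cultures is not given in the sources used here, so the tests measure the spread between arrays, which may be technical.

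Cholesterol is built from acetyl-CoA by way of mevalonate and the branched hydrocarbon squalene, which is closed into lanosterol and then trimmed to the final sterol. Fatty acids are built from the same acetyl-CoA, and are then lengthened and desaturated. SREBP precursors sit in the endoplasmic reticulum bound to SCAP. INSIG proteins hold that complex there when sterols are plentiful. When sterols run short the complex moves to the Golgi, where proteases free the part of the SREBP that enters the nucleus and switches on these genes. SREBP-2, from Srebf2, acts mainly on sterol genes and SREBP-1, from Srebf1, mainly on fatty acid genes. Dividing leukaemia cells use both pathways to make membranes.

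The median log2 signal per array was 6.61 to 6.68, and precision is limited by having 3 or 4 arrays a group. Markers of the T lineage were mostly bright (median log2 signal 11.9 over 8 genes), with Cd5 (7.92) and Ptcra (7.69) the dimmest. Those of other lineages had medians of 6.29 (5 B-lineage genes), 6.36 (6 myeloid), 6.46 (3 erythroid) and 6.92 (6 stromal and endothelial), with Pecam1 (11.3) and Epor (8.55) the brightest. None of these other-lineage markers passed the test in any comparison. The mean over the T-lineage markers was 10.90 to 11.06 on the AI-9-54 arrays, 10.99 to 11.17 on the AI-8-45 arrays and 11.12 to 11.34 on the AI-7-54 arrays, and its part in the results was not tested. Among its genes, Cd5 fell against AI-7-54 after AI-9-54 (-0.60) and after AI-8-45 (-0.69), and Bcl11b (-0.40) and Ptcra (-0.53) fell after AI-9-54. Between AI-9-54 and AI-8-45, 1 of the 8 was called lower, where 0.6% of all genes were. The largest difference there was that of Bcl11b (-0.41, means 11.77 and 12.18). The third principal component, with 11.2% of the variance, set AI-8-45 replicate 3 apart from the other arrays at -16.3, and counts are therefore also given without it. Because RNA was measured in bulk, fewer expressing cells and less RNA per cell cannot be told apart.

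Sterol and fatty acid synthesis genes were lower after AI-8-45 than after AI-7-54, both at 100 µM. Of the 32 measured members, 22 fell and none rose by limma (adjusted p under 0.05 over all genes), a count that was also 22 without AI-8-45 replicate 3. Over all genes in that comparison, 3.53% were called lower and 2.13% higher. Without AI-8-45 replicate 3, 1029 of all genes were called in either direction, against 1255 with it. With all 11 arrays, the members' counts at an unadjusted limma p under 0.05 were 25 lower and 0 higher. By that rule 9.45% of all genes were lower and 7.25% higher. The median log2 difference over the members was -0.42, against 0.00 over all genes. After AI-9-54, 24 of the 32 were lower than after AI-7-54 and none was higher, where 7.29% of all genes were called lower and 6.87% higher. By an unadjusted limma p under 0.05, 25 were lower and 0 higher, where 12.5% of all genes were lower and 12% higher. The members' median was -0.48, against 0.00 over all genes. Here the doses differ (50 µM against 100 µM), so compound and dose cannot be told apart. Both comparisons share the 3 AI-7-54 arrays and are not independent of each other. The shares over all genes include dim genes, while most members were brighter than the median gene. With only genes above the median gene tested, 1688 were called after AI-8-45 and 3498 after AI-9-54 against AI-7-54, in either direction. Both counts exceeded those over all genes, although fewer genes were tested. Members called lower there numbered 23 and 24.

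**Figure D1:**
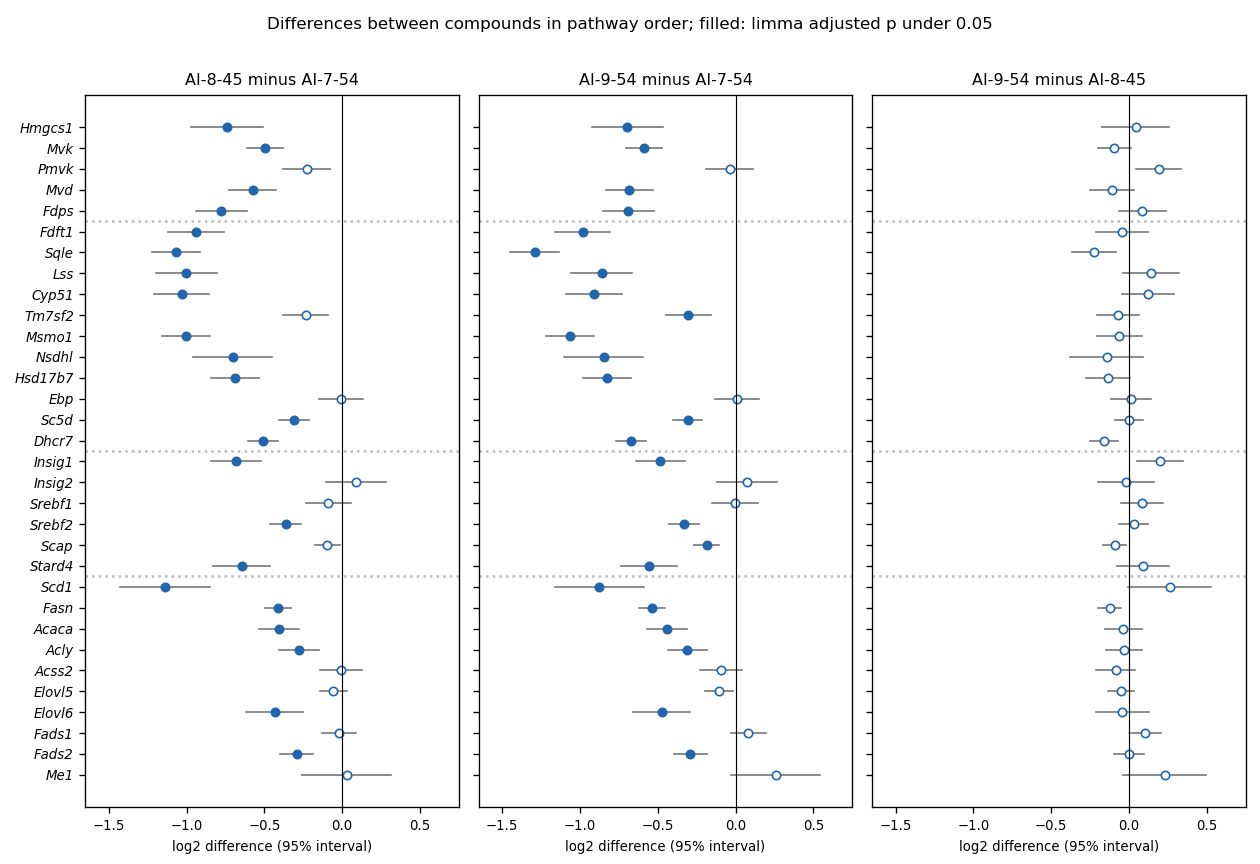
Log2 difference of each member (points, with 95% intervals as lines) for AI-8-45 minus AI-7-54, AI-9-54 minus AI-7-54 and AI-9-54 minus AI-8-45, in pathway order from Hmgcs1 at the top, with dotted lines between branches. Filled points passed limma at an adjusted p under 0.05: 22, 24 and 0 of 32 members.

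In the mevalonate branch, 4 of 5 measured genes fell after AI-8-45 relative to AI-7-54 (median log2 difference -0.57) and 4 of 5 after AI-9-54 (median -0.68). Hmgcs1 had a log2 signal of 10.83, 10.99, 11.24 and 11.20 after AI-9-54, 10.98, 10.95, 11.02 and 11.14 after AI-8-45, and 11.56, 11.95 and 11.78 after AI-7-54. Hmgcs1 encodes the cytosolic HMG-CoA synthase at the entry to the branch. Every AI-9-54 and AI-8-45 array lay below every AI-7-54 array, and the gene was 1.67-fold lower after AI-8-45 (log2 difference -0.74 ± 0.11 (SE), limma adjusted p 0.00171). Fdps had a log2 signal of 11.33, 11.37, 11.40 and 11.36 after AI-9-54, 11.40, 11.40, 11.04 and 11.27 after AI-8-45, and 12.03, 12.06 and 12.06 after AI-7-54. Fdps encodes farnesyl diphosphate synthase, which makes the isoprenoid shared by sterols, dolichol and prenylated proteins. Its AI-7-54 arrays were tightly grouped and stood above all others, with log2 differences of -0.78 ± 0.07 (SE) after AI-8-45 and -0.69 ± 0.07 (SE) after AI-9-54.

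Mvd had a log2 signal of 8.30, 8.51, 8.26 and 8.29 after AI-9-54, 8.55, 8.53, 8.36 and 8.34 after AI-8-45, and 9.02, 9.02 and 9.02 after AI-7-54. Mvd encodes the diphosphomevalonate decarboxylase that produces the first isoprene unit, and its arrays after AI-9-54 and AI-8-45 did not reach those after AI-7-54 (log2 differences -0.68 and -0.57). Mvk had a log2 signal of 8.12, 8.21, 8.26 and 8.21 after AI-9-54, 8.32, 8.33, 8.19 and 8.33 after AI-8-45, and 8.72, 8.86 and 8.77 after AI-7-54. The mevalonate kinase gene Mvk was thus lower after either compound without overlap, by log2 differences of -0.59 after AI-9-54 and -0.49 after AI-8-45. The exception was Pmvk, which encodes the next kinase. Pmvk had a log2 signal of 8.06, 8.09, 8.01 and 8.03 after AI-9-54, 7.90, 8.02, 7.65 and 7.85 after AI-8-45, and 8.07, 8.13 and 8.06 after AI-7-54. The AI-9-54 and AI-7-54 ranges of Pmvk overlapped, with a difference of -0.04 (95% interval -0.19 to 0.12). Between AI-8-45 and AI-7-54 it was -0.23 without overlap but missed the threshold (limma adjusted p 0.09). It passed without AI-8-45 replicate 2 (limma adjusted p 0.0318) and with replicates 1 and 2 against 3 and 4 as a factor (0.0341).

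The sterol branch, the largest of the 4, held the most called members. After AI-8-45 its share was close to that of the mevalonate branch (9 of 11 against 4 of 5). Of 11 genes, 9 fell after AI-8-45 relative to AI-7-54 (median log2 difference -0.70) and 10 after AI-9-54 (median -0.85). Sqle had a log2 signal of 9.71, 9.70, 9.86 and 9.93 after AI-9-54, 10.07, 10.03, 9.94 and 10.05 after AI-8-45, and 10.94, 11.18 and 11.14 after AI-7-54. Sqle encodes squalene epoxidase, the first oxygen-dependent step of the branch. Its 3 groups did not overlap, and its AI-9-54 arrays were the lowest. The gene was 2.10-fold lower after AI-8-45 (limma adjusted p 1.93e-05) and 2.45-fold lower after AI-9-54 (limma adjusted p 7.69e-07) than after AI-7-54. Lss had a log2 signal of 8.71, 8.92, 8.87 and 8.89 after AI-9-54, 8.71, 8.85, 8.43 and 8.83 after AI-8-45, and 9.70, 9.67 and 9.75 after AI-7-54. Lss encodes lanosterol synthase, which closes the sterol rings, and all AI-9-54 and AI-8-45 arrays lay well below the AI-7-54 arrays. Its log2 differences were -0.86 ± 0.09 (SE) after AI-9-54 and -1.003 ± 0.09 (SE) after AI-8-45.

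Cyp51 had a log2 signal of 8.89, 9.13, 8.998 and 8.88 after AI-9-54, 9.005, 8.82, 8.69 and 8.88 after AI-8-45, and 9.78, 10.00 and 9.86 after AI-7-54. Cyp51 encodes the lanosterol demethylase, and its AI-9-54 and AI-8-45 ranges overlapped while both stayed below AI-7-54 (log2 differences -0.91 and -1.03). Msmo1 had a log2 signal of 8.88, 8.98, 8.87 and 8.90 after AI-9-54, 9.07, 9.02, 8.88 and 8.89 after AI-8-45, and 9.80, 10.06 and 10.05 after AI-7-54. Msmo1 encodes the methylsterol monooxygenase that follows, with log2 differences of -1.06 after AI-9-54 and -1.001 after AI-8-45 and no overlap with AI-7-54. Upstream, the squalene synthase gene Fdft1, at the commitment to sterols, had log2 differences of -0.98 after AI-9-54 and -0.94 after AI-8-45. The dehydrogenase gene Nsdhl (-0.85 and -0.70) and the ketoreductase gene Hsd17b7 (-0.83 and -0.69), which act with Msmo1 in removing methyl groups, fell in both comparisons.

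Of the remaining genes, Dhcr7, which encodes the reductase of the last step, had log2 differences of -0.67 after AI-9-54 and -0.51 after AI-8-45. The sterol desaturase gene Sc5d had -0.31 and -0.31. Tm7sf2 encodes a sterol reductase that acts after Cyp51. Tm7sf2 had a log2 signal of 8.35, 8.51, 8.43 and 8.24 after AI-9-54, 8.49, 8.44, 8.46 and 8.44 after AI-8-45, and 8.81, 8.67 and 8.59 after AI-7-54. It fell after AI-9-54 (-0.30, limma adjusted p 0.00844) but missed the threshold after AI-8-45 (-0.23, adjusted p 0.0652), where it passed under 6 of 25 alternatives, 2 of which leave out an AI-9-54 array (replicate 2, adjusted p 0.0484, or replicate 4, 0.0416). Ebp encodes a sterol isomerase and passed in neither comparison. Ebp had a log2 signal of 9.49, 9.54, 9.67 and 9.60 after AI-9-54, 9.53, 9.43, 9.71 and 9.58 after AI-8-45, and 9.51, 9.62 and 9.57 after AI-7-54. These ranges overlapped throughout, with 95% intervals of -0.13 to 0.15 for AI-9-54 and -0.15 to 0.13 for AI-8-45 against AI-7-54.

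**Figure D2:**
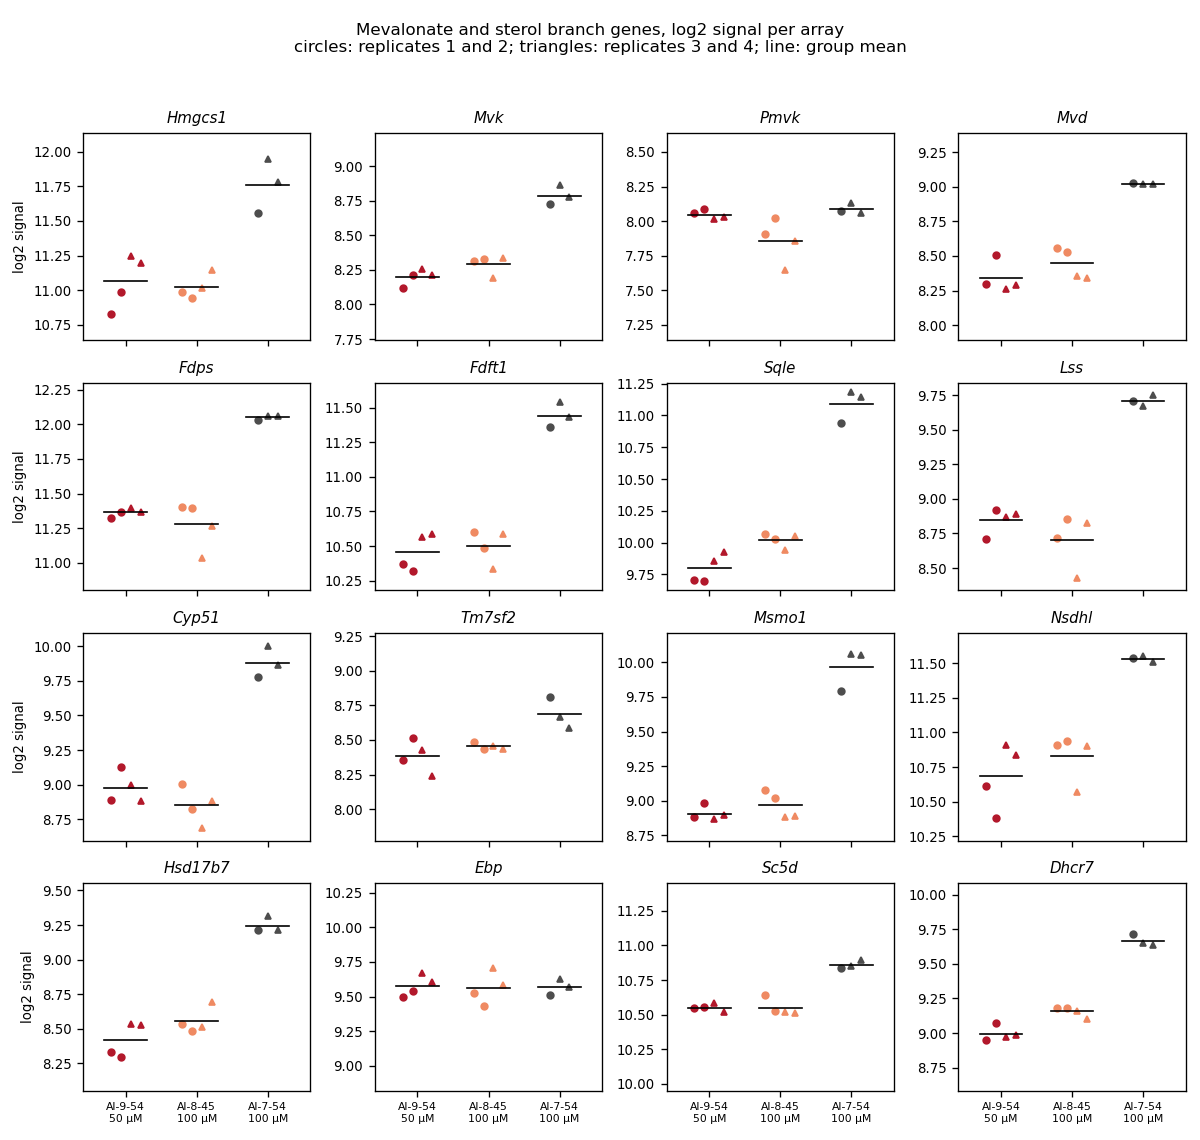
Log2 signal on each array (points) and group mean (lines) for the 5 mevalonate and 11 sterol branch genes, by compound and dose; circles are replicates 1 and 2 and triangles 3 and 4, and each panel has its own axis. In most panels the 3 AI-7-54 arrays lie above all AI-9-54 and AI-8-45 arrays, while Ebp overlaps in all groups and Pmvk overlaps between AI-9-54 and AI-7-54.

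Since the motifs of members that move together can be compared, promoters are shown for the members with the largest log2 differences between AI-8-45 and AI-7-54 that have an entry in the RefSeq promoter table (build GRCm38.p6). Each line gives the 250 bases before the annotated transcript start, 5′ to 3′ on the gene's strand, with motif matches in capitals.
Cyp51, chr5:4104698-4104947, minus strand: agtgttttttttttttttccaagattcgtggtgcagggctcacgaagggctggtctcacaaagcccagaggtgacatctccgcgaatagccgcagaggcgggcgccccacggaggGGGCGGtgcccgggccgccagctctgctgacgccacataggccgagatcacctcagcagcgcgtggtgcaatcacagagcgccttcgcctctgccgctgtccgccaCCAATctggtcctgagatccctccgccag
Lss, chr10:76531355-76531604, plus strand: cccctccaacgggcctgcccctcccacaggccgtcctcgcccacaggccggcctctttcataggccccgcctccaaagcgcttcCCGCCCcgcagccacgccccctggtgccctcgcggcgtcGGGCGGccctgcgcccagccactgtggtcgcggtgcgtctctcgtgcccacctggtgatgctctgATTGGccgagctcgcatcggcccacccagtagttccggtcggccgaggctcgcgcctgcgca
Msmo1, chr8:64733579-64733828, minus strand: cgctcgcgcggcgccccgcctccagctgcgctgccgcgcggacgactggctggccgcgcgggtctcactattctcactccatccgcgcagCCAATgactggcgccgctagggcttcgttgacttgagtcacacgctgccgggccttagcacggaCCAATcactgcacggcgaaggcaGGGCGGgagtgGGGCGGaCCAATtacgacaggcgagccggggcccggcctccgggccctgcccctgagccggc
Hmgcs1, chr13:119690101-119690350, plus strand: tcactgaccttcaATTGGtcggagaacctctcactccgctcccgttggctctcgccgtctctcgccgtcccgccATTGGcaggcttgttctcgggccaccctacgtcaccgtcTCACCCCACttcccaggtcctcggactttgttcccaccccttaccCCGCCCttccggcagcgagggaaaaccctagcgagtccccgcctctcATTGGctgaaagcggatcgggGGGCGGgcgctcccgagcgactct
Capitals mark 4 motifs searched on both strands: an SREBP motif (TCACNCCAC), the E-box CACGTG, the NF-Y box CCAAT and the Sp1 box GGGCGG, none of which contains another. NF-Y and Sp1 are general promoter factors known to act beside SREBPs. Hmgcs1 holds the SREBP motif as TCACCCCAC, beginning 137 bases before the start, with NF-Y boxes on either side of it. Cyp51 has 1 NF-Y box, beginning 29 bases before the start, Lss has 1 at 62 bases, and Msmo1 has 3, at 160, 96 and 55 bases.

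Over windows of 300 bases (250 before and 50 after each start), 28 listed members had 37 promoters in the table, including some for Acat2 and Idi1. The NF-Y box was found in 64.9% of these promoters, against 37.4% of all 32851 promoters in the table. The Sp1 box was in 73.0%, against 35.7%, and the E-box in 18.9%, against 7.15%. The SREBP motif as spelled here was in 1 of the 37 (2.7%), that of Hmgcs1, against 1.24% of all. These shares are a description, not adjusted for base composition, and a missing match says only that these letters are not in this window. By call at matched dose, an NF-Y box was present in 14 of 17 genes called lower after AI-8-45 and in 8 of 9 not called, and an Sp1 box in 14 of 17 and 7 of 9. Ebp, which passed in neither comparison, carried 2 NF-Y boxes and 1 Sp1 box.

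**Figure D3:**
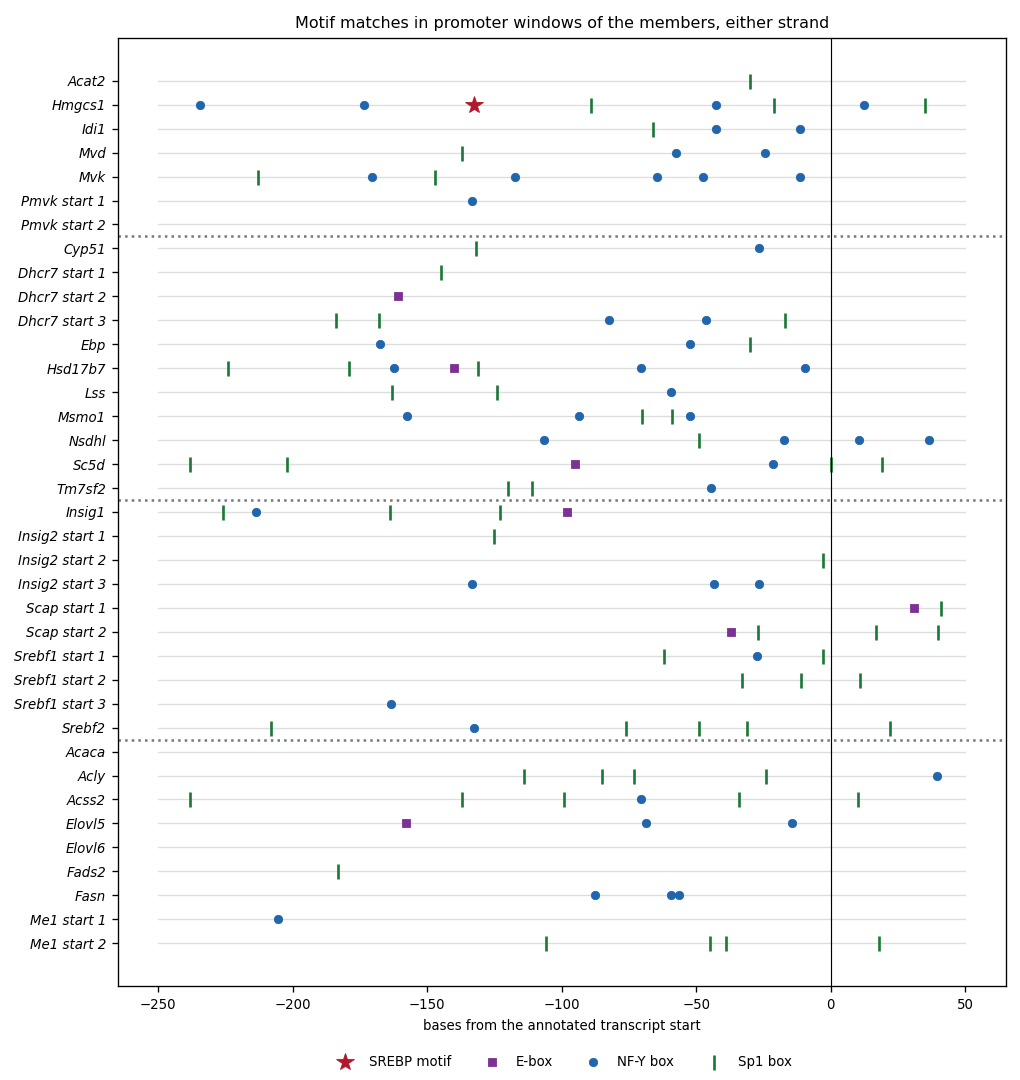
Position of each motif match (centre, in bases from the annotated start at 0) in the 37 promoter windows of 28 listed members, grouped by branch, with a row for each annotated start. The 1 SREBP motif match is in Hmgcs1, and 23 of the 28 genes have an NF-Y box and 23 an Sp1 box.

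Of the 6 genes for SREBP control and sterol transport, 3 fell after AI-8-45 relative to AI-7-54 (Insig1, Srebf2 and Stard4; median log2 difference -0.23) and 4 after AI-9-54 (these and Scap; median -0.26). Insig1 had a log2 signal of 10.95, 11.01, 11.07 and 10.95 after AI-9-54, 10.93, 10.86, 10.62 and 10.79 after AI-8-45, and 11.37, 11.59 and 11.48 after AI-7-54. Insig1 encodes the INSIG protein whose gene is itself a target of SREBPs. Its 3 groups did not overlap. AI-8-45 was the lowest and AI-9-54 lay between, with log2 differences from AI-7-54 of -0.48 ± 0.07 (SE) after AI-9-54 and -0.68 ± 0.07 (SE) after AI-8-45. The other INSIG gene did not follow. Insig2 had a log2 signal of 9.88, 9.85, 9.65 and 9.67 after AI-9-54, 9.94, 9.91, 9.61 and 9.65 after AI-8-45, and 9.73, 9.73 and 9.60 after AI-7-54. The Insig2 groups overlapped, and its 95% intervals against AI-7-54 were -0.12 to 0.27 for AI-9-54 and -0.10 to 0.28 for AI-8-45.

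Of the SREBP genes themselves, Srebf2 passed in both comparisons and Srebf1 in neither. Srebf2 had a log2 signal of 11.02, 11.07, 11.15 and 11.12 after AI-9-54, 11.11, 11.04, 11.03 and 11.06 after AI-8-45, and 11.37, 11.43 and 11.47 after AI-7-54. Srebf2, which encodes SREBP-2, was lower without overlap, 1.26-fold after AI-9-54 (limma adjusted p 0.000425) and 1.29-fold after AI-8-45 (limma adjusted p 0.000686). Srebf1 had a log2 signal of 9.05, 9.23, 9.06 and 9.06 after AI-9-54, 9.18, 8.99, 8.92 and 8.96 after AI-8-45, and 9.17, 9.07 and 9.06 after AI-7-54. Srebf1 overlapped between all groups, with log2 differences of -0.00 (95% interval -0.15 to 0.14) after AI-9-54 and -0.09 (-0.23 to 0.06) after AI-8-45. One probe set stood for the whole gene, so the 2 forms of SREBP-1 could not be separated. The escort gene Scap passed in the AI-9-54 comparison. Scap had a log2 signal of 9.78, 9.80, 9.80 and 9.78 after AI-9-54, 9.88, 9.86, 9.91 and 9.87 after AI-8-45, and 9.95, 9.98 and 9.99 after AI-7-54. Its groups did not overlap, and the log2 difference was -0.19 after AI-9-54 (limma adjusted p 0.00413) and -0.09 after AI-8-45, which missed the threshold (adjusted p 0.189). The other probe set of Scap was dimmer and, averaged with this one, took the AI-9-54 difference to -0.14 with the call kept. Stard4 had a log2 signal of 8.31, 8.46, 8.70 and 8.56 after AI-9-54, 8.46, 8.42, 8.29 and 8.51 after AI-8-45, and 9.01, 9.16 and 9.03 after AI-7-54. Stard4 encodes a soluble sterol carrier, and it was lower without overlap (log2 differences -0.56 after AI-9-54 and -0.65 after AI-8-45).

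The fatty acid branch was split between genes that fell and genes that did not. Of 10 measured genes, 6 were lower and none higher after AI-8-45 than after AI-7-54 (median log2 difference -0.28), and 6 were lower and none higher after AI-9-54 (median -0.30). Scd1 had a log2 signal of 9.32, 9.40, 9.66 and 9.499 after AI-9-54, 9.51, 9.39, 8.87 and 9.05 after AI-8-45, and 10.26, 10.41 and 10.36 after AI-7-54. Scd1 encodes stearoyl-CoA desaturase, which makes monounsaturated fatty acids. AI-7-54 stood above all other arrays, and the AI-8-45 arrays spread most, with replicates 3 and 4 the lowest of all. Scd1 was 1.83-fold lower after AI-9-54 and 2.20-fold lower after AI-8-45 (limma adjusted p 0.000798 and 0.000374).

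Fasn had a log2 signal of 11.47, 11.49, 11.53 and 11.54 after AI-9-54, 11.65, 11.62, 11.63 and 11.63 after AI-8-45, and 12.07, 12.03 and 12.03 after AI-7-54. Fasn, the fatty acid synthase gene, separated the 3 groups with little spread, by log2 differences of -0.54 ± 0.04 (SE) after AI-9-54 and -0.41 ± 0.04 (SE) after AI-8-45. Acaca had a log2 signal of 10.02, 10.04, 9.94 and 9.91 after AI-9-54, 10.12, 10.07, 9.93 and 9.94 after AI-8-45, and 10.46, 10.36 and 10.45 after AI-7-54. Acaca encodes the acetyl-CoA carboxylase that supplies malonyl-CoA to Fasn, and it fell by log2 differences of -0.44 and -0.41. Elovl6 had a log2 signal of 10.34, 10.17, 10.54 and 10.46 after AI-9-54, 10.43, 10.44, 10.25 and 10.55 after AI-8-45, and 10.82, 10.85 and 10.89 after AI-7-54. The elongase gene Elovl6 did not overlap with AI-7-54 after either compound (-0.48 after AI-9-54 and -0.43 after AI-8-45). Leaving out AI-7-54 replicate 4 ended the AI-8-45 call of Elovl6 (limma adjusted p 0.0517). Acly, which makes cytosolic acetyl-CoA from citrate, had -0.31 and -0.28. That AI-8-45 call was lost when AI-7-54 replicate 3 (limma adjusted p 0.0826) or replicate 4 (0.0608) was left out. The desaturase gene Fads2 fell with log2 differences of -0.29 and -0.29.

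The other 4 genes of the branch passed in neither comparison. Fads1, which encodes the partner desaturase of Fads2, had log2 differences of 0.08 (95% interval -0.03 to 0.19) after AI-9-54 and -0.02 (-0.13 to 0.09) after AI-8-45. The elongase gene Elovl5 had -0.10 (-0.19 to -0.01) and -0.06 (-0.15 to 0.03). Its arrays did not overlap with AI-7-54 after either compound, narrowly so after AI-8-45 (up to 11.656, against 11.6656 and above). Acss2, which makes acetyl-CoA from acetate, had -0.10 (-0.23 to 0.04) and -0.01 (-0.14 to 0.13). The malic enzyme gene Me1 was dim on all arrays, at 4.71 to 5.55, below the array medians, so no level is drawn from it. Its log2 differences were 0.26 (-0.03 to 0.54) and 0.03 (-0.26 to 0.31).

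**Figure D4:**
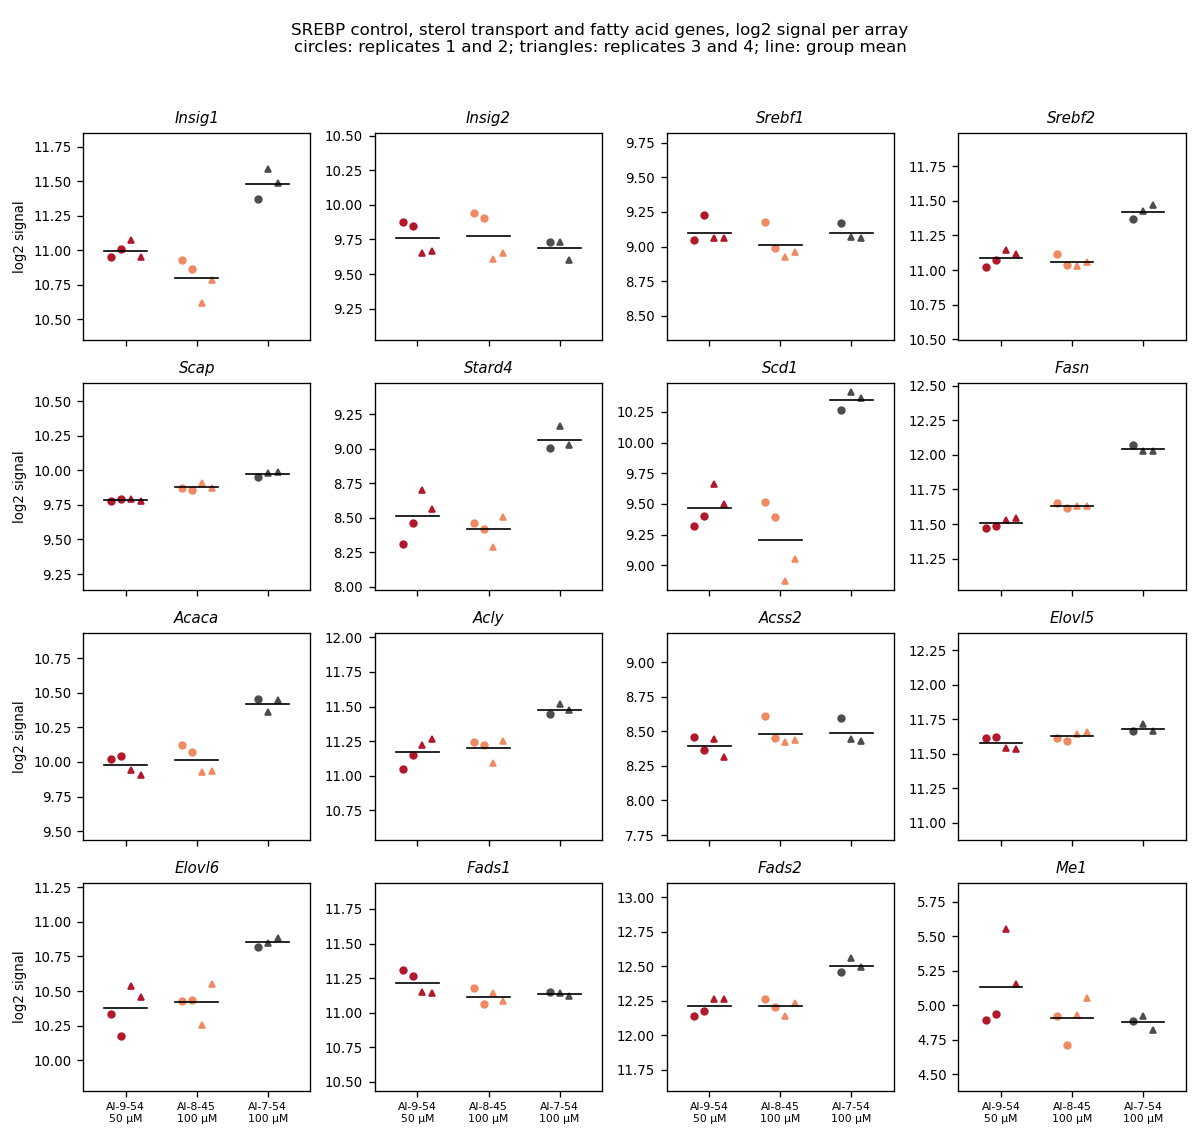
Log2 signal on each array (points) and group mean (lines) for the 6 genes of SREBP control and sterol transport and the 10 fatty acid genes, by compound and dose. Insig1, Srebf2, Stard4, Scd1 and Fasn are among the genes that separate AI-7-54 from both other compounds, while Insig2, Srebf1, Acss2 and Fads1 overlap. Elovl5 also separates them, though it was not called.

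Set directly against each other, AI-9-54 at 50 µM and AI-8-45 at 100 µM gave no member past the limma threshold (0 of 32 called, where 0.6% of all genes were called lower and 0.708% higher). Over all genes 290 were called in this comparison, against 128 to 257 with 1 array left out and 816 with the replicate set as a factor. Leaving out any array other than AI-9-54 replicate 1 or AI-7-54 replicates 1 and 3 lowered that count by over 1.5 times, the most for AI-8-45 replicate 1. At an unadjusted limma p under 0.05, 4 members were lower and 2 higher after AI-9-54, where 5.34% of all genes were lower and 6.08% higher. The lower ones were Sqle (log2 difference -0.22, adjusted p 0.153), Dhcr7 (-0.16, 0.0964), Fasn (-0.12, 0.134) and Scap (-0.09, 0.272). The higher ones were Insig1 (0.20, adjusted p 0.236) and Pmvk (0.19, 0.246). Missing the threshold does not show that the compounds act alike, and the 95% intervals of the member differences reached from -0.38 (Nsdhl) to 0.53 (Scd1). The branch medians were 0.04 for mevalonate, -0.06 for sterol, 0.06 for SREBP control and transport and -0.03 for fatty acid genes. Without AI-8-45 replicate 3 they were 0.01, -0.09, 0.03 and -0.06, with 0 calls.

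The second principal component (19.6% of the variance) placed replicates 1 and 2 on one side and replicates 3 and 4 on the other. AI-9-54 and AI-8-45 hold both sets in equal number, so a set shift common to both cancels in their difference but adds to the spread. AI-7-54 holds replicates 1, 3 and 4, so comparisons with it are not balanced for the set. After AI-8-45, the median difference between replicates 3 and 4 and replicates 1 and 2 was -0.19 for mevalonate, -0.07 for sterol, -0.09 for control and transport and -0.04 for fatty acid genes. Without AI-8-45 replicate 3 these medians were -0.11, -0.02, -0.06 and 0.00. Without AI-8-45 replicate 1 they were -0.18, -0.03, -0.04 and -0.02, so the sizes depended on single arrays. After AI-9-54 the same medians were 0.04, 0.06, 0.01 and 0.08, where the median over all genes was -0.01 after AI-9-54 and 0.00 after AI-8-45. They too depended on single arrays, the sterol median being 0.00 without AI-9-54 replicate 1 and 0.14 without AI-9-54 replicate 2, and the control and transport median -0.02 without AI-9-54 replicate 3. Leaving out arrays here was chosen after seeing the data. Nsdhl, for example, was at 10.61 and 10.38 in AI-9-54 replicates 1 and 2 but at 10.91 and 10.84 in replicates 3 and 4. Scd1 differed between AI-9-54 and AI-8-45 by -0.09 within replicates 1 and 2 and by 0.62 within replicates 3 and 4, where it was called (limma adjusted p 0.0412). With the replicate set as a factor, Dhcr7 was called lower after AI-9-54 than after AI-8-45 (-0.16, adjusted p 0.0421). Whether the sets mark a culture, an extraction or a hybridization is not given in the sources used here.

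Against AI-7-54 the branch medians were below 0 within each set. After AI-8-45 the mevalonate median was -0.48 in the first set (replicates 1 and 2) and -0.67 in the other (3 and 4), the sterol median -0.70 and -0.795, the control and transport median -0.19 and -0.26, and the fatty acid median -0.22 and -0.33. After AI-9-54 the same medians were -0.62 and -0.64, -0.86 and -0.73, -0.24 and -0.26, and -0.32 and -0.26. Within replicates 3 and 4, 20 members were called lower in either comparison. In these fits 613 of 22180 genes were called in either direction after AI-8-45 and 2189 after AI-9-54. Acly and Elovl6 missed the threshold there in both (limma adjusted p 0.0629 and 0.0669 after AI-9-54, 0.0617 and 0.066 after AI-8-45), as did Tm7sf2 (0.0576) and Scap (0.0582) after AI-9-54. The first set holds a single AI-7-54 array, so its counts are not given. In both comparisons fewer members, and fewer genes in all, were called there than with all arrays.

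Seen per array, the mean over the branch placed all 8 AI-9-54 and AI-8-45 arrays below the 3 AI-7-54 arrays in each of the 4 branches. The mevalonate mean was 9.33 to 9.43 after AI-9-54, 9.25 to 9.45 after AI-8-45 and 9.88 to 10.00 after AI-7-54. The sterol mean was 9.35 to 9.48 after AI-9-54, 9.38 to 9.52 after AI-8-45 and 10.11 to 10.19 after AI-7-54. For the fatty acid genes the ranges were 10.06 to 10.18, 10.01 to 10.16 and 10.37 to 10.39, and for control and transport they were 9.83 to 9.90, 9.73 to 9.92 and 10.10 to 10.16. AI-8-45 replicate 3 gave the lowest AI-8-45 mean in all 4 branches. Without it the medians between AI-8-45 and AI-7-54 were -0.55, -0.68, -0.23 and -0.25 for mevalonate, sterol, control and fatty acid genes.

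**Figure D5:**
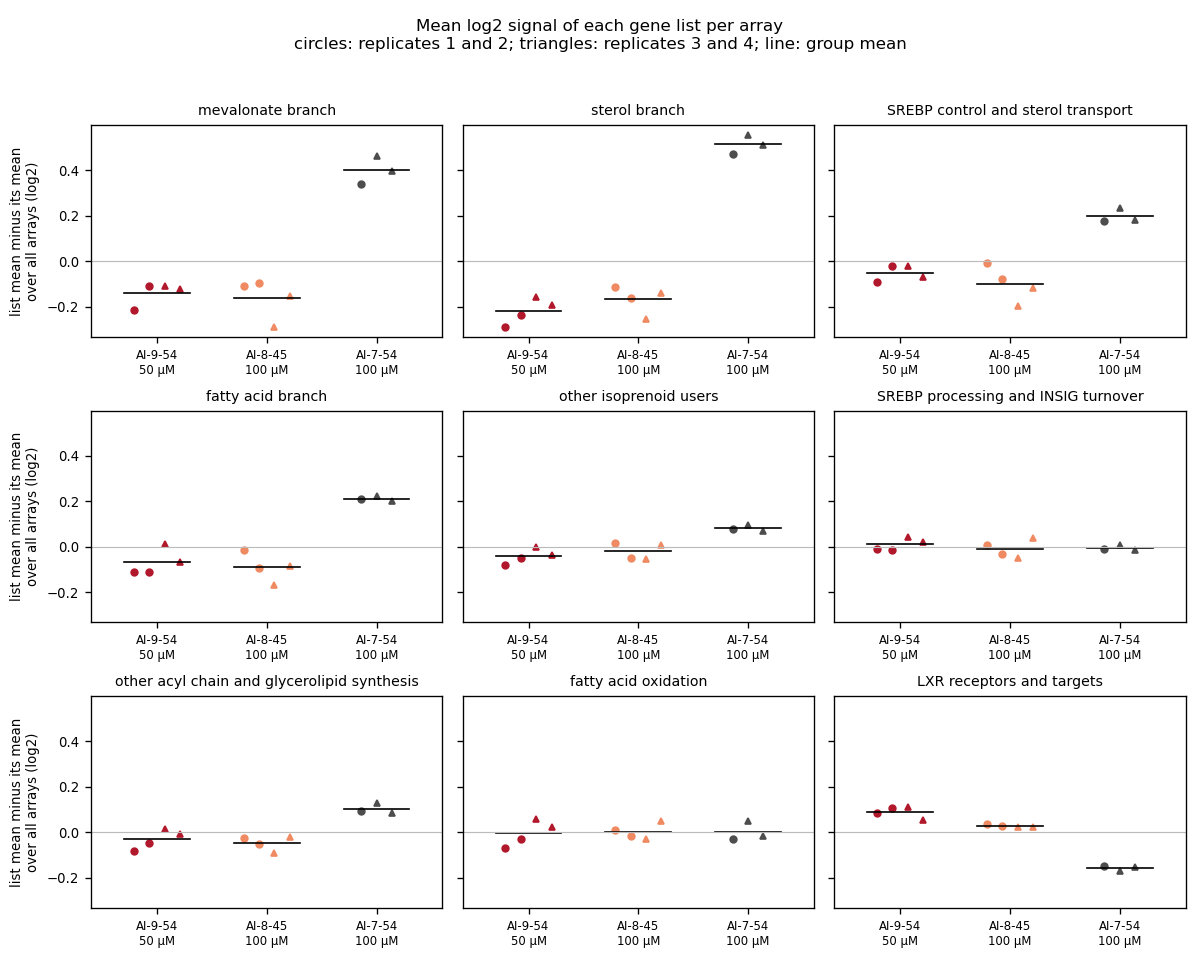
Mean log2 signal over each gene list per array, less its mean over all 11 arrays, for the 4 branches and 5 neighbouring lists, by compound and dose. The 4 branches place AI-7-54 above both other compounds without overlap. The lists of other isoprenoid users and of other acyl chain and glycerolipid synthesis do so too, by smaller differences. The list of LXR receptors and targets places AI-7-54 below both, with Abcg1 the most changed of its genes.

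Neighbouring pathways were followed with lists chosen by function. Over all genes, dim ones included, 3.53% were called lower and 2.13% higher after AI-8-45 than after AI-7-54. After AI-9-54 the shares were 7.29% and 6.87%. The list means of other isoprenoid users were 9.46 to 9.49 after AI-7-54 and at most 9.41 on the other arrays. Those of other acyl chain and glycerolipid synthesis were 9.48 to 9.52 and at most 9.41. Of 21 other genes of acyl chain and glycerolipid synthesis, 6 fell after AI-8-45 relative to AI-7-54 (median log2 difference -0.10), and 6 fell and 1 rose after AI-9-54 (median -0.06). Idh1, which encodes the cytosolic NADP-dependent isocitrate dehydrogenase, had log2 differences of -0.64 after AI-9-54 and -0.68 after AI-8-45. The acetoacetyl-CoA synthetase gene Aacs had -0.74 and -0.64, and the sterol-regulated membrane protein gene Tmem97 had -0.70 and -0.45. Of 13 users of isoprenoids outside sterol synthesis, 5 fell after AI-9-54, led by the Rab prenylation enzyme gene Rabggtb (-0.69), and 1 fell after AI-8-45, the dolichol synthesis gene Nus1 (-0.21). Rabggtb also fell between AI-9-54 and AI-8-45 (-0.48, limma adjusted p 0.0247), the 1 call among these 13 genes. Of the 21 acyl chain and glycerolipid genes, 1 was lower and 1 higher in that comparison. Over all genes, 0.6% were called lower and 0.708% higher there.

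The machinery that processes SREBPs and turns over INSIG was mostly not called. Of 13 such genes, 1 rose in each comparison with AI-7-54 and none fell. Over all genes, dim ones included, 2.13% rose after AI-8-45 and 6.87% after AI-9-54, so 1 of 13 is near the latter share. The gene that rose was Rnf145, for a sterol-responsive ubiquitin ligase, at 0.41 after AI-9-54 and 0.43 after AI-8-45 (limma adjusted p 0.00746 and 0.0124). Of 5 LXR receptors and targets, which belong to the response to surplus sterol, 2 rose after AI-9-54 (list median 0.16) and 1 after AI-8-45 (0.09), and none fell. The sterol exporter gene Abcg1 was higher than after AI-7-54 by 0.62 after AI-9-54 and 0.72 after AI-8-45 (limma adjusted p 1.26e-05 and 2.79e-05). The LXR gene Nr1h3 was higher than after AI-7-54 by 0.35 after AI-9-54 and had a log2 difference of 0.11 after AI-8-45 (limma adjusted p 0.551). The other 3 genes were not called, with differences of -0.04 (Mylip), 0.14 (Smpdl3a) and 0.16 (Lpcat3) after AI-9-54 and -0.07, 0.09 and 0.08 after AI-8-45. Of 14 fatty acid oxidation genes, none passed after AI-8-45. At an unadjusted limma p under 0.05, 2 were lower and 0 higher, where 9.45% of all genes were lower and 7.25% higher. After AI-9-54, 4 fell and 1 rose, by log2 differences of -0.26 to 0.20, where 7.29% of all genes fell and 6.87% rose. The list median was 0.02 in either comparison.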

How the data were processed

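RNA of the 11 samples was amplified, labelled with biotin and hybridized to single-colour whole-transcript microarrays, per the labels' protocols. The deposited table holds 1 log2 value per probe set and array; RMA and Partek 6.6 appear in the submitters' processing notes, and the log2 scale was read from the values (3.23 to 13.8). The genome build behind it is not given in the sources used here. Of 41345 probe sets, 23521 had 1 gene symbol, 1814 named more than 1 gene and 16010 had no name here. Single symbols were brought up to date by Entrez identifier (23328 of 23521 matched in GRCm38.p6), and each of 22180 genes was read at its probe set with the highest mean, with no filter on dim genes.

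All genes were fitted in 1 model over the 11 arrays with limma 3.58.1 in R 4.3.3 (8 residual degrees of freedom, prior 4.14). Tests were two-sided, with Benjamini-Hochberg adjustment across the 22180 genes and calls at 0.05. Per-array values were given for the 4 members of each branch with the largest difference between AI-8-45 and AI-7-54 and for all regulators, and Pmvk, Tm7sf2 and Ebp were added after their values were seen. The neighbouring lists were given by counts and by up to 3 called genes with the largest difference. Members, lists and alternatives were chosen with earlier results of these data known. RefSeq promoters matched 28 of 35 members. The 25 alternatives covered scaling, dim genes, probe sets, prior, weights, replicate number and set, groups fitted, and each array left out. Figures used matplotlib 3.10.9 in Python 3.11.15.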

Additional observations from a re-analysis of the deposited data

Results flagged for a closer look

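Single arrays stood apart from the rest of their group of 4 in 7 of 72 groups examined by Dixon's gap test, where chance gives about 1 in 20. On AI-8-45 replicate 3, Mvk was at 8.19 (others 8.32 to 8.33) and Nsdhl at 10.57 (others 10.91 to 10.94). On AI-8-45 replicate 1, Sc5d was at 10.64 (others 10.51 to 10.52) and Acss2 at 8.61 (others 8.42 to 8.45). On AI-9-54 replicate 2, Mvd was at 8.51 (others 8.26 to 8.30) and Srebf1 at 9.23 (others 9.05 to 9.06). The mean over the mevalonate branch was 9.33 on AI-9-54 replicate 1 (others 9.42 to 9.43). The calls of Mvk, Nsdhl, Sc5d and Mvd against AI-7-54 were kept with any 1 array left out. AI-7-54, with 3 arrays, was not examined in this way.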

How the results depend on the processing

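None of the member counts or branch medians against AI-7-54 changed direction under any of the 25 alternatives, and no called member turned its sign. Leaving out 1 array gave 20 to 23 lower members between AI-8-45 and AI-7-54 and 24 between AI-9-54 and AI-7-54. Over all genes, 1255 were called between AI-8-45 and AI-7-54, but 540 without AI-7-54 replicate 3 and 622 without AI-7-54 replicate 4. Between AI-9-54 and AI-7-54, 3139 were called, against 2103 to 3290 with 1 array left out. With the replicate block as a fixed factor the counts were 24 (adding Pmvk, limma adjusted p 0.0468, and Tm7sf2, 0.0407) and 24, and with a random block 22 and 24. Of all genes, 1408 and 3297 were called with the fixed block and 1278 and 3187 with the random block. The numbers were not treated as pairs, since same-numbered arrays correlated at only -0.0225 to 0.451 in their deviations from the group means. Arrays of the same set with other numbers correlated at 0.0404 to 0.492, and arrays of different sets at -0.475 to 0.00913. The main model leaves out the set. With the set as a factor the counts against AI-7-54 were 24 after AI-8-45 and 24 after AI-9-54, where 1949 and 4036 of all genes were called. Within replicates 1 and 2 the lower members numbered 0 after AI-8-45 and 14 after AI-9-54, in fits with fewer arrays. The medians there were -0.4818 (mevalonate) and -0.2166 (fatty acid) between AI-8-45 and AI-7-54. Between AI-9-54 and AI-8-45 they were -0.0558 (mevalonate), -0.1167 (sterol) and -0.0402 (control and transport). Within replicates 3 and 4 they were -0.6689 (mevalonate) and -0.795 (sterol) between AI-8-45 and AI-7-54, and -0.7338 (sterol) between AI-9-54 and AI-7-54. Between AI-9-54 and AI-8-45 they were 0.1418 (mevalonate), -0.0052 (sterol) and 0.0525 (fatty acid), with 1 member higher (Scd1). In that comparison 1 member was lower (Dhcr7) with the replicate set as a factor, and 1 (Dhcr7) when only genes above the median gene were tested. Leaving out 1 array gave medians between AI-9-54 and AI-7-54 of -0.6839 to -0.6017 for mevalonate genes, the smallest without AI-7-54 replicate 3, and of -0.8747 to -0.7833 for sterol genes, the smallest without AI-9-54 replicate 2. The causes were not tested. Differences of members that were not called turned their sign in 18, 9 and 38 cases over the alternatives (AI-8-45 against AI-7-54, AI-9-54 against AI-7-54 and AI-9-54 against AI-8-45). The dim gene Me1 dropped out under both filters. No vehicle group, a dose that differs for AI-9-54 and groups of 3 and 4 arrays limit these comparisons.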
